A study of Mus musculus with 10 samples.

Results

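The 8 genes described here, Slc27a4, Cyp4f39, Pnpla1, Abhd5, Abca12, Alox12b, Aloxe3 and Sdr9c7, make omega-O-acylceramide and the lipid envelope of the cornified cell. They were taken by symbol, and most of them are genes of inherited ichthyosis. All 8 have an entry among the 23282 of each table, and all 8 were among the 11536 genes tested, which had a value of at least 5 in at least 5 libraries. The data come from the whole skin of 5-month-old C57BL/6 mice, where 5 libraries (STAT3cKO) had keratinocytes ablated for STAT3 and 5 were wild type (WT). For the promoter that drove the deletion, the deleted exons, the sex, the litters and whether libraries stand for separate mice, the sources used here give nothing. The p-values therefore describe spread among libraries, some of which may be technical.

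The water barrier of the skin lies in the outermost epidermis, where dead cornified cells are embedded in stacked lipid. Its particular lipid is a ceramide whose very long fatty acid carries a hydroxyl group at the far end, to which linoleic acid is esterified. Cyp4f39 belongs to the cytochrome P450 family that places that hydroxyl group, and Slc27a4, the fatty acid transport protein FATP4, joins the acid to coenzyme A. The ceramide synthase Cers3 then makes the ceramide, Pnpla1 adds the linoleic acid with the help of Abhd5, and the transporter Abca12 loads the lipid into lamellar granules. After secretion the lipoxygenases Alox12b and Aloxe3 and the dehydrogenase Sdr9c7 oxidise the linoleic acid, and the lipid is bound to the proteins of the cornified envelope.

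Of the 8 genes 7 have a start site in the RefSeq promoter table used (build GRCm38.p6), from which the 250 bases upstream were read. A pair of windows is shown. The first belongs to Slc27a4, the gene with the clearest change, and the second to Sdr9c7, whose window was the only one of the 7 with a match to a STAT element.
Slc27a4, chr2:29802384-29802633, plus strand: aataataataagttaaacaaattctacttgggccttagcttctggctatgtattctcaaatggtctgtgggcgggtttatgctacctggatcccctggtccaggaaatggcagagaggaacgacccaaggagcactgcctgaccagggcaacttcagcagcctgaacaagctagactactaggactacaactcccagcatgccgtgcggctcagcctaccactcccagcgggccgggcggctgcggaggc
Sdr9c7, chr10:127898285-127898534, plus strand: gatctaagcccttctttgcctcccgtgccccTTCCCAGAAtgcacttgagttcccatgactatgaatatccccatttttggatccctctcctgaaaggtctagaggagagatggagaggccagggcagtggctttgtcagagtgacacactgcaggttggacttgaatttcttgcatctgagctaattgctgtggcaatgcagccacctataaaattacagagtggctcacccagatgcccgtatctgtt
Capitals mark TTCCCAGAA, a match to the STAT element TTCNNNGAA whose first base lies at −219 from the start site. The search covered both strands, and 7.02% of the 32851 upstream windows of that length hold this element. The letters of an AP-1 site (TGANTCA, in 6.75% of windows), an E-box (CACGTG, in 6.02%) and a grainyhead-like site (AACCGGTT, in 0.116%) occur in 0 of the 7 windows. These are matches of letters, with no measurement of binding.

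The libraries hold 3′ ends of transcripts, so that the number of reads per gene does not grow with transcript length. Levels are set beside each other between genes on that ground alone. How well the 3′ end of each gene was annotated and mapped was not checked. The deposited values are on a log2 scale, and all levels and changes below are on it. The estimated depth, to 3 significant digits, was 7200000 to 16700000 reads in WT and 7520000 to 18400000 in STAT3cKO. Of the tested genes 83 to 2617 had no read in a library, most in STAT3cKO 2 (2617) and WT 3 (1273). The 4 libraries above 12000000 reads (WT 1, WT 2, STAT3cKO 4 and STAT3cKO 5) are called deeper and the other 6 shallower. Stat3 itself, at 9.72 ± 0.56 (SD, n = 5) in WT and 10.13 ± 0.48 in STAT3cKO, checks nothing about the ablation, because 3′ reads can come from a transcript without the deleted exons, and keratinocytes are not the only cells sampled.

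STAT3cKO skin carried far more Slc27a4 transcript than WT skin, while the gene that assists Pnpla1, Abhd5, stayed at nearly the same mean level. Of the 8 genes 1 rose, 0 fell and 7 did not pass the test (limma, Benjamini-Hochberg adjusted p under 0.05). Over all tested genes 0.988% passed, 0.529% by a rise and 0.459% by a fall (61 and 53 genes, or 75 and 39 when all libraries were scaled to the same sum). The changes of 7 of the 8 were positive and their median was 0.97, beside a median of −0.16 and 43.8% positive changes over all 11536 genes. By unadjusted limma p under 0.05 and a higher STAT3cKO level, 4.95% of all genes would count, and of the 8 these were Slc27a4, Cyp4f39 and Aloxe3. In whole skin a change in the number of cells of a type and a change in RNA per cell cannot be told apart.

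**Figure D1:**
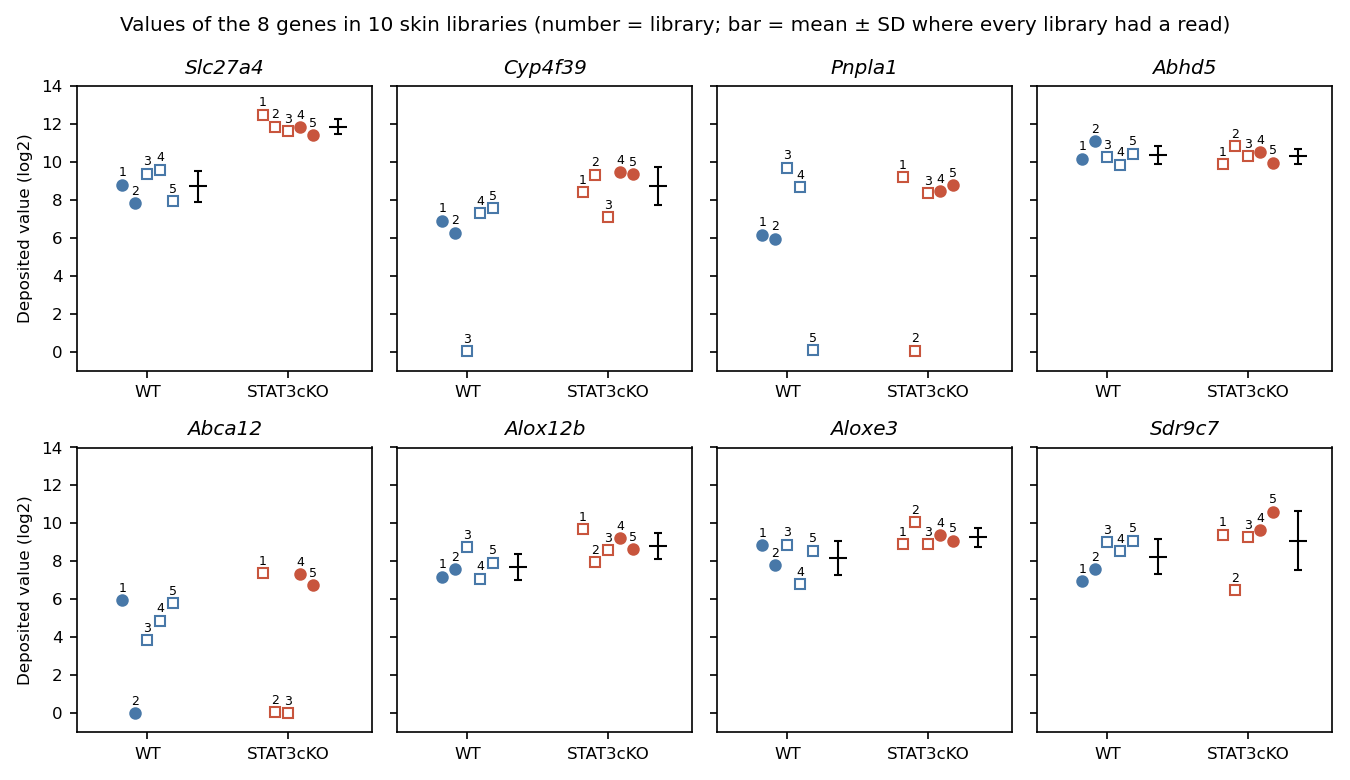
Deposited log2 value (vertical axis) of each of the 8 genes in the 5 WT (blue) and 5 STAT3cKO (red) libraries, with the library number above each point. Filled circles are deeper and open squares shallower libraries, and bars show mean ± SD where every library of the group had a read. Slc27a4 lies at 7.84 to 9.60 in WT and 11.42 to 12.50 in STAT3cKO, whereas Cyp4f39, Pnpla1 and Abca12 each have libraries without a read.

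Slc27a4 (ENSMUSG00000059316, chromosome 2, 29802634 to 29817522, plus strand of mm10) activates very long fatty acids, and mice without it are born with tight, leaky skin. Its value was 8.80, 7.84, 9.38, 9.60 and 7.94 in WT 1 to 5. It was 12.50, 11.86, 11.63, 11.85 and 11.42 in STAT3cKO 1 to 5. No STAT3cKO library reached down to the WT range, and the gap between the groups was wider than the range within either. In estimated reads these were 163 to 666 per WT library and 2670 to 4966 per STAT3cKO library. The change of 3.14 (SE 0.38, 95% bounds 2.34 and 3.95, limma adjusted p = 2.76e-04) is an 8.82-fold rise, with a 95% interval of 5.05 to 15.4 fold. By p-value it stood at place 8 among the 11536 genes.

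The rise was of similar size in both depth classes. It was 3.32 (adjusted p = 0.00591) among the 4 deeper libraries and 3.03 (adjusted p = 0.0151) among the 6 shallower ones. Without the pair of libraries with the most missing genes, STAT3cKO 2 and WT 3, it was 3.31 (adjusted p = 9.12e-04). No exon of Slc27a4 overlaps an exon of another annotated gene, and the next coding gene beyond its 3′ end, Urm1, starts 2553 bases further on the same strand.

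Abhd5 (chromosome 9, 122351608 to 122381524, plus strand), also called CGI-58, is the coactivator of Pnpla1 in the epidermis and of the triglyceride lipase Pnpla2 in fat. Its value was 10.17, 11.08, 10.27, 9.86 and 10.45 in WT 1 to 5. The STAT3cKO libraries, from 1 to 5, had 9.90, 10.83, 10.30, 10.53 and 9.96. The groups overlapped almost fully, and the change was −0.06 (SE 0.32, 95% bounds −0.74 and 0.62, limma adjusted p = 0.963). The interval leaves room for a fall to 0.6-fold or a rise to 1.54-fold. When all libraries were scaled to the same sum, the change was 0.05 and the median of all genes moved by 0.11. Relative to that median Abhd5 stood at 0.10 on either scale, and at −0.05 after quantile normalization, which moved the median by 0.15.

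The order of the top 2 genes was therefore the opposite in the groups. Abhd5 was above Slc27a4 in 5 of 5 WT libraries and Slc27a4 above Abhd5 in 5 of 5 STAT3cKO libraries. The difference, Slc27a4 minus Abhd5, was −1.65 ± 1.21 (SD, n = 5) in WT and 1.55 ± 0.61 in STAT3cKO. Slc27a4 made up 7.27 to 26.6% of the summed unlogged values of the 8 genes in WT and 36.8 to 58.9% in STAT3cKO. This pairing was picked after the values were seen and is given without a test.

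**Figure D2:**
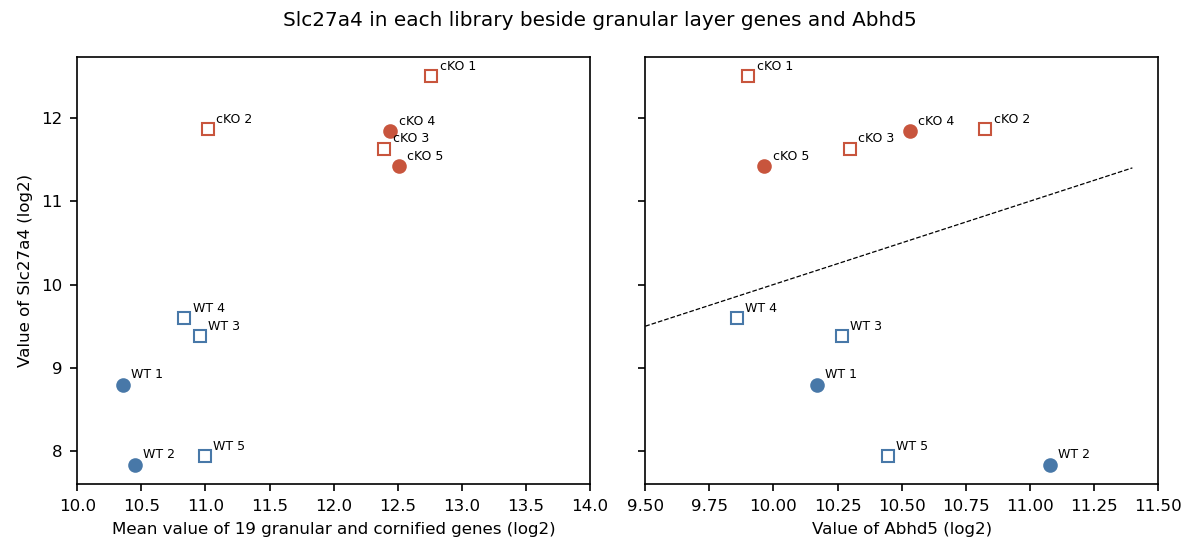
Value of Slc27a4 (vertical axis, log2) in each library against the mean value of 19 granular and cornified keratinocyte genes (left, log2) and against Abhd5 (right, log2), WT in blue and STAT3cKO in red, deeper libraries filled. The dashed line marks equal values of Slc27a4 and Abhd5: the 5 STAT3cKO libraries lie above it and the 5 WT libraries below. On the left, STAT3cKO 2 has a granular mean of 11.02, close to WT 5 at 10.99, and a Slc27a4 value of 11.86 against 7.94. Each of these granular means includes 2 genes without a read, which lower it.

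Cyp4f39 (chromosome 17, 32452723 to 32493320, plus strand) is the mouse counterpart of the human hydroxylase gene CYP4F22. Its value was 6.92, 6.27, 0.06, 7.31 and 7.55 in WT 1 to 5. The STAT3cKO libraries, from 1 to 5, had 8.42, 9.33, 7.11, 9.48 and 9.36. The 0.06 of WT 3 stands for no read, and 4 of the 5 STAT3cKO libraries lay above all WT libraries. The change of 3.12 (SE 1.33, 95% bounds 0.31 and 5.92, limma adjusted p = 0.402) did not pass. It was 1.73 without WT 3 (adjusted p = 0.405) and 1.58 without WT 3 and STAT3cKO 2 (adjusted p = 0.356).

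Pnpla1 (chromosome 17, 28858411 to 28890309, plus strand), the transacylase that completes acylceramide, had values of 6.17, 5.96, 9.70, 8.67 and 0.08 in WT 1 to 5. In STAT3cKO 1 to 5 they were 9.21, 0.06, 8.35, 8.45 and 8.77. Each group thus had 1 library without a read (WT 5 and STAT3cKO 2), although the other 8 libraries held 78 to 767 estimated reads. The change was 0.85 (SE 1.99, 95% bounds −3.35 and 5.05, limma adjusted p = 0.898), 2.58 without STAT3cKO 2 (adjusted p = 0.519) and −0.66 without WT 5 (adjusted p = 0.916). Without STAT3cKO 2 and WT 3 together it was 3.47 (adjusted p = 0.376). Its exons share 644 bases with the antisense gene Pnpla1os, and those of Abhd5 share 950 bases with the antisense gene A730085K08Rik. Whether counting used strand was not stated.

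Abca12 (chromosome 1, 71242276 to 71414910, minus strand), the lipid transporter of lamellar granules and the gene of harlequin ichthyosis, was the least abundant of the 8. Its value was 5.96, 0, 3.87, 4.89 and 5.79 in WT 1 to 5. The STAT3cKO libraries, from 1 to 5, had 7.39, 0.06, 0.01, 7.32 and 6.76. The 3 STAT3cKO libraries with reads lay above all WT libraries, and the other 2, like WT 2, had none. The change was 0.21 (SE 2.03, 95% bounds −4.06 and 4.47, limma adjusted p = 0.979). It was 4.06 among the deeper and −2.36 among the shallower libraries. A change in Abca12 of the size measured for Slc27a4 lies inside the interval. No read of a member was found in 6 instances: 2 in STAT3cKO 2 and 1 each in WT 2, WT 3, WT 5 and STAT3cKO 3. The part that missing genes of these libraries play in the results of Cyp4f39, Pnpla1 and Abca12 was not tested beyond the values without them.

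Alox12b and Aloxe3 encode the 12R-lipoxygenase and its partner eLOX3, which act one after the other on the linoleic acid of acylceramide. They are neighbours on the plus strand of chromosome 11, Aloxe3 at 69125896 to 69149115 and Alox12b at 69156989 to 69169792, with 7873 bases between them. Alox12b was at 7.19, 7.61, 8.74, 7.09 and 7.94 in WT 1 to 5. The STAT3cKO libraries, from 1 to 5, had 9.69, 7.95, 8.58, 9.23 and 8.63. Its groups overlapped, because WT 3 was higher than 3 of the STAT3cKO libraries. Aloxe3 was at 8.86, 7.80, 8.88, 6.79 and 8.57 in WT 1 to 5. The STAT3cKO libraries, from 1 to 5, had 8.90, 10.05, 8.91, 9.37 and 9.10. Its groups did not overlap, but the lowest STAT3cKO library (8.896) was barely above the highest WT library (8.880). Groups without overlap were found for 3.42% of all tested genes, 1.71% with a higher STAT3cKO level, and for 2 of the 8 genes (Slc27a4 and Aloxe3). The changes were nearly equal, 1.10 for Alox12b (SE 0.56, 95% bounds −0.08 and 2.29, limma adjusted p = 0.502) and 1.09 for Aloxe3 (SE 0.50, 95% bounds 0.04 and 2.13, limma adjusted p = 0.440), and neither passed.

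Sdr9c7 (chromosome 10, 127898518 to 127911761, plus strand) encodes the short-chain dehydrogenase that follows the lipoxygenases. Its value was 6.97, 7.60, 9.03, 8.54 and 9.09 in WT 1 to 5. The STAT3cKO libraries, from 1 to 5, had 9.41, 6.48, 9.29, 9.65 and 10.62. Here 4 STAT3cKO libraries were above all WT libraries and STAT3cKO 2 was below all of them. The change was 0.85 (SE 0.68, 95% bounds −0.58 and 2.27, limma adjusted p = 0.666), and 1.498 without STAT3cKO 2 (adjusted p = 0.202). Among the deeper libraries it was 2.85 (adjusted p = 0.0420) and among the shallower ones −0.49 (adjusted p = 0.892). The difference of 3.35 between the depth classes had an unadjusted p of 0.0135 and an adjusted p of 0.9996 in limma's interaction test.

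**Figure D3:**
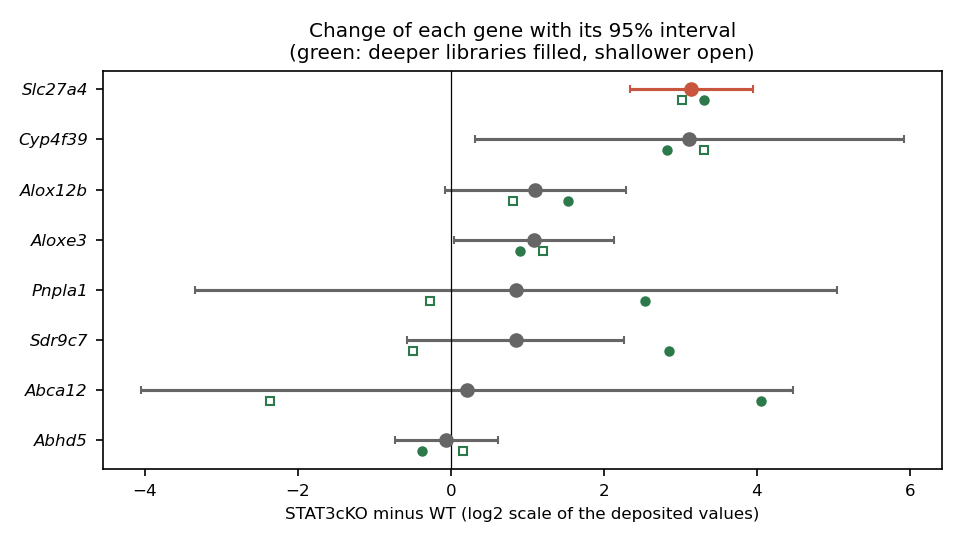
Change of each gene, STAT3cKO minus WT on the log2 scale (horizontal axis), with its 95% interval from limma (n = 5 per group). Slc27a4 is in red because it alone of the 8 passed the test, the other 7 are in grey, and the green marks under each bar give the change within the deeper (filled) and the shallower (open) libraries. The interval of Abca12 reaches from −4.06 to 4.47, and that of Abhd5 only from −0.74 to 0.62.

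Mean levels were ordered for the genes with a read in every library. WT skin had Abhd5 (10.36) first, then Slc27a4 (8.71), Sdr9c7 (8.25), Aloxe3 (8.18) and Alox12b (7.71). The step from Abhd5 to Slc27a4 was seen in 5 of 5 WT libraries. Neighbours further down changed places between libraries, as Sdr9c7 and Aloxe3 did in 2 of 5. In STAT3cKO skin the order was Slc27a4 (11.85), Abhd5 (10.30), Aloxe3 (9.27), Sdr9c7 (9.09) and Alox12b (8.82). The steps from Slc27a4 to Abhd5 and from Abhd5 to Aloxe3 held in 5 of 5 libraries. Aloxe3 was above Sdr9c7 in only 1 of 5. Cyp4f39, left out of the order, had a mean of 8.74 in STAT3cKO, and Alox12b was above it in 2 of 5.

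Whether the rise of Slc27a4 was larger than that of the other 7 genes was tested on its value minus their mean in each library. This difference was 1.52 ± 0.54 (SD, n = 5) in WT and 3.64 ± 1.23 in STAT3cKO, higher by 2.12 and without overlap. The exact 2-sided permutation p was 0.00794, the smallest that 5 against 5 libraries allow. After Benjamini-Hochberg adjustment over the 8 genes compared in this way it was 0.0635 and did not pass. That is the lowest adjusted p open to a gene that alone reaches the smallest p. The adjusted test could therefore not have passed Slc27a4 alone, whatever its difference. For each of the other 7 the exact permutation p was at least 0.103. The means include genes without a read, 2 in STAT3cKO 2 and 1 each in STAT3cKO 3, WT 2, WT 3 and WT 5. The difference for Slc27a4 was 5.47 in STAT3cKO 2 and 4.12 in STAT3cKO 3. In STAT3cKO 1, 4 and 5, with a read for all 8 genes, it was 3.51, 2.70 and 2.39. Between the groups it was higher by 1.27 in the deeper and 2.69 in the shallower libraries.

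Markers of the upper epidermis were looked at beside these genes. Of 19 tested granular and cornified keratinocyte genes 0 passed and 18 had a positive change, with a median of 1.28. The protease Asprv1 had a change of 1.42, short of the threshold (limma adjusted p = 0.0537), and the keratin Krt1 one of 3.44 (adjusted p = 0.0540). The summed share of the list was 0.711 to 1.95% of a WT library and 1.95 to 4.24% of a STAT3cKO library, and the groups overlapped at the edge (1.954% in WT 5 and 1.947% in STAT3cKO 2). The basal list had 0 calls among 13, a median of 0.32, and Krt14 at a change of 1.30 (adjusted p = 0.250) and Dst at 1.01 (adjusted p = 0.264).

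The value of Slc27a4 minus the mean of the granular list was also taken in each library. It stood at −2.01 ± 0.78 (SD, n = 5) in WT and −0.37 ± 0.74 in STAT3cKO, a difference of 1.63 with no overlap (exact permutation p = 0.00794). Adjusted over the 8 genes the p was 0.0635 and did not pass. Here too this is the lowest adjusted p that a gene alone at the smallest p can reach. In this relative value the groups differed, STAT3cKO minus WT, by −0.40 for Alox12b (exact permutation p = 0.175) and −0.42 for Aloxe3 (exact permutation p = 0.540). The difference for Abhd5 was −1.57 (exact permutation p = 0.0317, adjusted p = 0.127). For Cyp4f39, Pnpla1, Abca12 and Sdr9c7 the exact permutation p was 0.278 to 0.675.

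Calls among markers of other cell types of whole skin are given here beside the 0.988% of all 11536 tested genes that passed. Adipocyte genes, of which 1 of 15 fell (Car3, a carbonic anhydrase of fat, by 3.06, limma adjusted p = 0.0209), 0 rose and 0 had a positive change, took 1.23 to 6.70% of a WT library and 0.524 to 2.73% of a STAT3cKO library. The ranges overlapped. The call of Car3 was lost without WT 1, 2 or 3 or STAT3cKO 1 or 5, with adjusted p up to 0.0729, in the shallower libraries alone (adjusted p = 0.433) and without trend and robust estimation (adjusted p = 0.136). Every defining adipocyte gene had reads in most libraries, although Lep had none in 2 and Plin1 and Adrb3 none in 1 each. Of 14 tested sebaceous gland genes 3 rose, 0 fell and 7 had a positive change, with a median of 0.24. The risers were Elovl3, an elongase, by 4.31 (adjusted p = 0.00355), Soat1, the enzyme that esterifies cholesterol, by 3.10 (adjusted p = 0.00167) and Krt79, a keratin of the gland duct, by 2.67 (adjusted p = 4.60e-04). The call of Soat1 was lost in the shallower libraries alone (adjusted p = 0.214) and that of Krt79 without trend and robust estimation (adjusted p = 0.0505). Among the other members, named after their values were seen, Scd3, a desaturase, had a change of −6.71 (adjusted p = 0.0520) and Awat2, a wax synthase, one of −2.78 (adjusted p = 0.571). The sebaceous list, in which the receptor Mc5r was listed at 0 in all 10 libraries, took 0.289 to 1.47% of a WT library and 0.958 to 2.02% of a STAT3cKO library. The part of these cell types in the change of Slc27a4 was not tested.

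Of 8 tested hair follicle genes 0 passed and 7 had a positive change, with a median of 2.02. Their mean value was 1.38, 1.87, 5.32, 13.6 and 5.31 across WT 1 to 5. In the STAT3cKO libraries, from 1 to 5, it was 10.6, 0.22, 13.3, 0.81 and 10.3. WT 4, the WT library with the highest mean, also had the highest WT value of Slc27a4 (9.60), and WT 2, at 1.87, had the lowest (7.84). WT 1, with the lowest WT hair mean (1.38), had Slc27a4 at 8.80. WT 3 and WT 5, with hair means of 5.32 and 5.31, had Slc27a4 at 9.38 and 7.94. Among STAT3cKO libraries Slc27a4 was at 11.86 and 11.85 in the 2 with the lowest hair means, at 11.42 and 12.50 in the next 2 and at 11.63 in the one with the highest. The part of hair follicle content in the change of Slc27a4 was not tested. Fibroblast genes had 1 fall among 10 (Dpt, a matrix protein, by 1.53, limma adjusted p = 0.0287, lost without WT 1, 2, 3 or 5 or STAT3cKO 1, 3 or 5 with adjusted p up to 0.103, and in 5 further alternatives with adjusted p up to 0.315), and the skeletal muscle and the macrophage and dendritic cell lists had 0 calls among 10 each, with medians of −0.14, −1.92 and −0.73.

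Around the 8 genes, 38 further genes of ceramide and envelope synthesis were listed, of which 37 have an entry and 36 were tested. In this list 5 rose, 0 fell and 31 did not pass, and the median change was 0.80. Over all tested genes 0.529% passed by a rise and 0.459% by a fall, and the median change was −0.16. Hacd2, a dehydratase of the elongation cycle, rose by 2.01 (SE 0.35, limma adjusted p = 0.00632), alongside Elovl4, its elongase for very long chains, by 2.03 (adjusted p = 0.00397), and Hsd17b12, its first reductase, by 1.37 (adjusted p = 0.0489). The call of Hsd17b12 held in 2 of the 10 fits that left out 1 library, with a highest adjusted p of 0.129 without STAT3cKO 1. It was lost without any of WT 1 to 4 or STAT3cKO 1, 2, 4 or 5, and in 7 further alternatives with adjusted p of 0.0501 to 0.725. Tecr, the reductase that closes the cycle and named for that role, had a change of 0.78 (adjusted p = 0.351). Fa2h, which hydroxylates fatty acids next to the acid group, rose by 3.85 (adjusted p = 0.00260) and Cers4, a ceramide synthase, by 2.74 (adjusted p = 6.84e-04). In the shallower libraries alone the calls of Elovl4 (adjusted p = 0.285), Hacd2 (adjusted p = 0.505) and Fa2h (adjusted p = 0.403) were lost, and without trend and robust estimation those of Elovl4 (adjusted p = 0.139), Hacd2 (adjusted p = 0.136) and Cers4 (adjusted p = 0.0654).

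Of the genes that did not pass, 5 were chosen for their role, outside the rule for named genes and with their values known. Cers3, the synthase of acylceramide, had 8.09 ± 1.45 (SD, n = 5) in WT and 9.39 ± 0.32 in STAT3cKO, a change of 1.30 (limma adjusted p = 0.436). Elovl1, an elongase upstream of Elovl4, had a change of 1.06 (adjusted p = 0.228). Ephx3, an epoxide hydrolase for the lipoxygenase products, had one of 1.06 (adjusted p = 0.410). Nipal4, another gene of ichthyosis, and Tgm1, the transglutaminase of the cornified envelope, had no read in 3 and 4 of the 10 libraries and changes of −1.18 (adjusted p = 0.853) and 0.81 (adjusted p = 0.915).

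**Figure D4:**
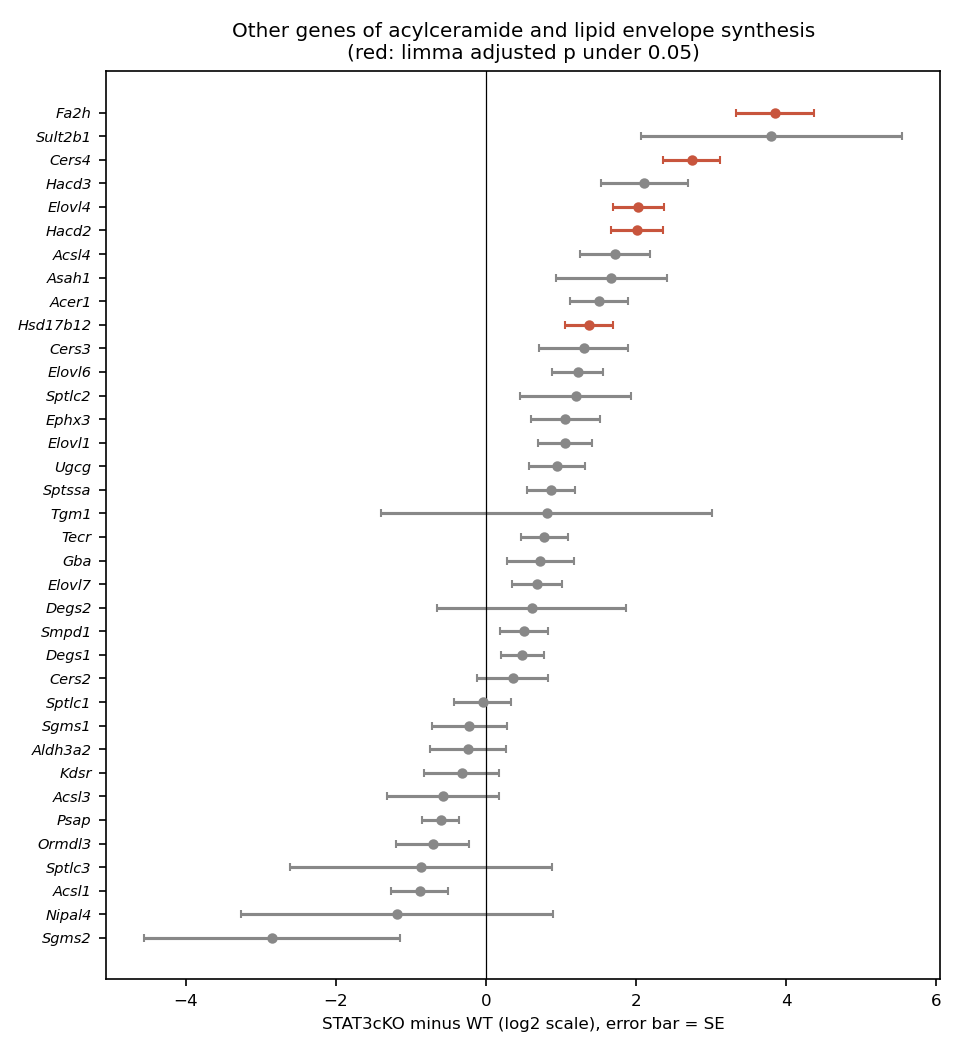
Change, STAT3cKO minus WT on the log2 scale (horizontal axis), of the 36 tested genes of ceramide and envelope synthesis other than the 8, with bars of 1 SE (n = 5 per group). Red marks the 5 genes that passed limma's test, Fa2h, Cers4, Elovl4, Hacd2 and Hsd17b12, all to the right of 0. Grey marks the 31 that did not.

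Relatives of the 8 genes were looked at by family. Of the other fatty acid transport proteins 3 of 5 were tested and 0 passed. Slc27a1 had a change of −3.52 (SE 1.80, limma adjusted p = 0.505) and Slc27a3 one of 1.96 (adjusted p = 0.625). Both had lower means than Slc27a4 in either group. In WT 1 to 3, however, Slc27a1 was at 9.66, 10.45 and 9.85, above Slc27a4 at 8.80, 7.84 and 9.38. In WT 4 and 5 Slc27a1 was at 6.23 and 3.71, below Slc27a4 at 9.60 and 7.94. A difference between the change of Slc27a4 and those of its relatives was not tested. Of the 8 other Cyp4f genes 2 were tested and 0 passed, Cyp4f16 with 2.15 (adjusted p = 0.691) and Cyp4f13 with −1.44 (adjusted p = 0.763). Of the Abca relatives 8 were tested and 0 passed, Abca5 with 1.23 (adjusted p = 0.352) and Abca2 with −2.50 (adjusted p = 0.565).

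Among other lipoxygenase genes 1 of 5 tested fell and 0 rose. Alox15, of macrophages and eosinophils, fell by 7.61 (SE 1.62, limma adjusted p = 0.0277), with no read in 4 of 5 STAT3cKO libraries. Leaving out WT 1, 2, 3 or 5 or STAT3cKO 1, 3 or 4 ended this call, with adjusted p up to 0.114, as did 4 further alternatives with adjusted p of 0.0793 to 0.495. Alox12e, another epidermal lipoxygenase, was at 10.31 ± 0.90 (SD, n = 5) in WT and 10.42 ± 1.20 in STAT3cKO, and was named after its values were seen. Of 8 tested retinol and short-chain dehydrogenases, the family of Sdr9c7, 0 passed and 7 had a positive change, Rdh1 with 3.94 (adjusted p = 0.0680) and Rdh9 with 1.57 (adjusted p = 0.458).

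Relatives of Pnpla1 and lipid droplet partners of Abhd5 formed another list. Of 15 tested 1 fell, 0 rose and 5 had a positive change, with a median of −1.60. Pnpla3, a lipase-like gene of fat and liver, fell by 4.29 (SE 0.54, limma adjusted p = 3.03e-04), from 11.20 ± 1.26 (SD, n = 5) to 6.90 ± 0.55. That call was lost in the shallower libraries alone (adjusted p = 0.0681). Mgll, a monoglyceride lipase named after its values were seen, had a change of 1.47 without overlap of the groups (adjusted p = 0.0615). Pnpla2, the triglyceride lipase that Abhd5 activates in fat, had a change of −1.94 (adjusted p = 0.243), and was named for that role. Adipocyte genes were lower in the same libraries, as given above, and their part in these values was not tested.

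The genes whose pattern across libraries was most like that of Slc27a4, after the mean of each group had been taken away, were Taf9, Anxa9, Cetn3, Ufc1 and Usp7. Pearson's r over the 10 libraries was 0.904, 0.881, 0.881, 0.865 and 0.862, the highest among the 5083 genes that averaged at least 8 and had a read in every library, once the 8 genes and those without a usual symbol were set aside. All 10 points share library depth and composition, and a maximum over so many genes is a description only. Not 1 of these 5 passed the test between genotypes, with changes of −0.37 to 0.60.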

How the data were processed

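RNA from whole skin was made into Lexogen QuantSeq 3′ libraries, per the labels' protocols. Reads were processed with Bowtie2 and bedtools on mm10, per the submitters' processing notes. On versions, annotation, strand, scaling and duplicates the sources used here give nothing. The values the authors deposited behave as log2 of scaled reads plus 1. The headers name no unit, so it was read from the values. Undoing the log, low values fell on multiples of 1 step per library: of values up to 20 reads, 89.9 to 100% were whole within 0.15 of a read. Sum over step gave the depth, and under 0.5 of a read counted as no read. Intervals cover the spread between libraries only.

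Genes with values of at least 5 in 5 libraries were fitted by limma 3.58.1 (R 4.3.3) with a term for group alone, a mean trend and robust moderation; Benjamini-Hochberg adjustment ran over all of them. Exact permutation tests used the 252 assignments of 5 of 10 libraries. The genes and lists were chosen with earlier results of these data known. Named were the 8 genes, called list members (up to 6), or in lists without a call up to 2 of lowest p, and the 5 most alike genes. Others are marked. The limma fit was tested on simulated data, drawn as independent normal values with the measured spread of each gene. Of 50 genes each given a change of 1, 2, 3 or 5, it called 1, 11, 16 and 31. Most changes of 1 to 3 were thus missed. Of 11336 genes without a change it called 5. Values at the floor and shifts shared by many genes of a library were not simulated. These counts may therefore not carry over to the measured data. Positions are from GENCODE on mm10 and sequences from RefSeq. Alternatives changed scaling, filter, pseudocount, moderation, library weights, covariates and libraries. Figures used matplotlib 3.10.9.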

Additional observations from a re-analysis of the deposited data

Results flagged for a closer look

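Within a group of 5 libraries, 2 values lay far from the rest, of 20 sets of 5 looked at, and chance flags about 1 in 20. Cyp4f39 was at 0.057 in WT 3, where the nearest other WT library was at 6.27, a gap of 0.829 of the group's range. Pnpla1 was at 0.064 in STAT3cKO 2, where the nearest other STAT3cKO library was at 8.35, a gap of 0.905 of the range. Both values stand for no read, in the 2 libraries with the most tested genes without a read.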

How the results depend on the processing

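Slc27a4 kept its direction and its call in all 24 alternatives, with changes of 2.92 to 3.42 and adjusted p of up to 0.0242 (no trend, not robust), and with 1 library left out its change was 2.92 to 3.36. The number of the 8 genes called was 1 in each of these alternatives except among the deeper libraries, where Sdr9c7 made it 2. Over all genes, 61 higher and 53 lower calls became 98 and 83 with quantile normalization, 13 and 31 without trend and robust estimation, 202 and 173 with library weights, 12 and 4 in the shallower libraries, 34 and 32 with the replicate block, and 75 and 39 with equal sums. Lower calls were 85 with a pseudocount of 16 and 92 in the deeper libraries. Leaving out 1 library gave 29 to 96 higher and 24 to 111 lower calls.

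No pairing by the replicate numbers of the titles was seen in the values. Deviations of same-numbered libraries correlated at −0.155 to 0.0159, and 0 of 5 WT libraries correlated best with their own number. A pairing that leaves little trace over all tested genes would be missed by this check. With the replicate block the change of Slc27a4 stayed 3.14 (adjusted p = 7.99e-04).

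Of the 12 calls on named genes other than the 8, Elovl3 was called in all its alternatives. Apart from fits without 1 library, 9 were lost in the shallower libraries, 7 without trend and robust estimation, 3 with the replicate block (adjusted p of 0.0793 to 0.146), 3 without STAT3cKO 2 and WT 3, 2 in the deeper libraries and 1 each with no filter, the stricter filter and equal medians.

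Directions turned only among changes that had not passed. For Abhd5 the change was 0.053 with equal sums and 0.15 in the shallower libraries, and −0.19 to 0.12 with 1 library left out. In the shallower libraries it was −0.27 for Pnpla1, −2.36 for Abca12, −0.49 for Sdr9c7 and −0.055 for Tgm1. With 1 library left out it was −0.66 to 2.58 for Pnpla1, −0.82 to 1.28 for Abca12, −0.19 to 2.04 for Tgm1 and −0.35 to 0.47 for Alox12e. In the deeper libraries it was −0.24 for Alox12e, −0.34 for Slc27a3, 0.53 for Abca2 and 4.75 for Nipal4, which was 0.89 with library weights and 0.19 without STAT3cKO 2 and WT 3.

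Relative to the granular genes, the differences that turned were 0.47 for Pnpla1, 1.99 for Abca12 and 0.78 for Sdr9c7 in the deeper libraries, 0.076 for Aloxe3 in the shallower ones, and 1.61 for Pnpla1 and −0.29 for Cyp4f39 without STAT3cKO 2 and WT 3. With the basal list in place of the granular one they were 0.55 for Pnpla1, 0.80 for Alox12b, 0.78 for Aloxe3 and 0.54 for Sdr9c7. With 1 library left out that of Pnpla1 was −2.23 to 0.77. Relative to the other 7 genes they were 0.38 for Pnpla1, 2.11 for Abca12 and 0.74 for Sdr9c7 in the deeper libraries, 0.16 for Alox12b and 0.61 for Aloxe3 in the shallower ones, and 2.01 for Pnpla1 and −0.15 for Cyp4f39 without STAT3cKO 2 and WT 3. With 1 library left out they were −2.16 to 1.02 for Pnpla1, −0.52 to 0.055 for Alox12b and −0.91 to 0.095 for Aloxe3. The cause was not tested. The depth class as a term and the interaction were added after the data were seen.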
